A study of Drosophila melanogaster with 120 samples.

Results

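Starch and the double sugars that flies eat are split in the gut before they are absorbed. Amylase cuts starch into maltose, and maltases, the alpha-glucosidases of the gut lining, release glucose from maltose and related sugars. In Drosophila the genes for these enzymes are known to be held down when the diet is rich in free sugar. The genes described here are the maltases of the Mal-A cluster (Mal-A1, Mal-A2, Mal-A3, Mal-A4, Mal-A6, Mal-A7 and Mal-A8), the maltase pair Mal-B1 and Mal-B2, and the proximal amylase gene Amy-p. Members were chosen by name, an older synonym being accepted, and a probe set was used only where the annotation of the array gives it to 1 gene. Of the 10 genes named, 9 had such a probe set, 1 each, out of 18,769 probe sets tested in the series, which are called transcripts. Amy-p had only a probe set that it shares with its neighbour copy Amy-d, so that no value is given under its name. In the RefSeq annotation (Release 6 plus ISO1 MT) the Mal-A genes lie side by side on 2R, with Mal-A5 between Mal-A4 and Mal-A6, and Mal-B1 and Mal-B2 are neighbours on 2L within the span of Pde1c. Mal-A1 overlaps Cyp4e1 there and Mal-A8 overlaps mtt.

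The samples were whole adult flies of 15 hemiclonal lines of Drosophila melanogaster, each with 4 independent samples per sex, and a sample was 6 flies measured on 1 Affymetrix array (120 arrays). All flies of a line carried 1 haploid genome drawn from the outbred LHM population, set against genomes that varied at random, so that differences between line means estimate what that haplotype adds. Hemiclonal males had double-X LHM mothers (C(1)DX, y, f) and hemiclonal females had LHM mothers, so that the sexes differed in the cross as well as in sex. All members are autosomal, and both sexes therefore carried them on the haplotype of the line. The flies were 14 days from egg (4 days adult), had been kept for 24 h from Day 12 with LHM testers of the other sex on yeasted food, and were sorted 20 h after the testers were removed and frozen 4 h later. Line names begin with H (6 lines) or P (9 lines), and the labels do not say what the letters mean.

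Values are log2 expression from RMA, with arrays already quantile-normalised, and a difference of 1 on this scale is a 2-fold difference. Array medians ran from 5.69 to 6.45, and their median was 5.73 in females and 6.37 in males. Centring each array on its median therefore lowered every male minus female difference by about 0.64, whereas centring on 37 ribosomal protein transcripts raised it, since their male minus female difference was -0.67. For the 180 pairs of replicate arrays Pearson's r across transcripts was 0.988 to 0.997 (median 0.996), and 107 of 120 arrays were most like an array of their own line and sex. As whole flies were measured, fewer gut cells and less RNA per gut cell cannot be told apart. Markers of the ovary and of the male reproductive tract followed the labels. All 6 measured ovary markers were higher in females (medians of their mean 10.4 in females and 4.34 in males), and all 4 male reproductive tract markers were higher in males (13.8 against 3.94). The smallest difference of an ovary marker was that of grk (-0.43, SE 0.04). After ribosomal protein centring 5 ovary markers were higher in females and 1 in males.

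Males had higher levels of nearly all maltases. In a mixed model per transcript (sex fixed, line and its interaction with sex random), 8 of 9 members were higher in males with the false discovery rate (FDR) held at 0.001, and each of these 8 was higher in males in 15 of 15 lines. A sex difference was called for 91.4% of all transcripts, with 30.5% higher in males and 60.9% higher in females. This split turned with the scaling, to 21.2% and 73.6% after array median centring and to 69.5% and 22.4% after ribosomal protein centring. The median male minus female difference was 2.32 over the 9 members and -0.27 over all transcripts. Before centring, all 8 were above 2-fold and 7 of them above 4-fold, sizes reached in that direction by 19.5% and 10.9% of all transcripts. After array median centring Mal-B2 was under 2-fold (0.75). Mal-A7 (2.84) and Mal-A3 (2.02) were then still above 4-fold, and the other Mal-A members lay between 1.43 (Mal-A6) and 1.94 (Mal-A8). With ribosomal protein centring the called differences ran from 2.07 (Mal-B2) to 4.16 (Mal-A7). Shares of all transcripts at these sizes were not taken after centring.

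Mal-A7 had the largest difference of the members. Its male arrays ran from 9.93 to 11.68 around a median of 10.94, and its female arrays from 5.49 to 9.07 around 7.40. No male array was as low as any female array, and the mean difference was 3.48 (SE 0.14, 15 lines), an 11.1-fold higher level in males (F test of sex, Benjamini-Hochberg adjusted p = 1.02e-12). Between lines it went from 2.26 in P13, where females were at their highest, to 4.22 in H09, where males were.

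Second in size of difference was Mal-A3, 6.30-fold higher in males. Its male arrays ran from 8.32 to 10.10 (median 9.19) and its female arrays from 5.37 to 7.44 (median 6.60). The difference was 2.66 (SE 0.10), again without overlap. Mal-A8, at the far end of the cluster, was 5.96-fold higher (2.58, SE 0.13). Its male arrays ran from 9.17 to 11.30 (median 10.41) and its female arrays from 6.17 to 9.20 (median 7.92), and the ranges met at 1 array of each sex.

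Mal-A1 and Mal-A2, the first genes of the cluster, differed between the sexes by almost the same amount. For Mal-A1 the male arrays lay between 12.23 and 13.48 (median 12.96) and the female arrays between 9.04 and 11.73 (median 10.65), a difference of 2.32 (SE 0.09) or 5.002-fold. For Mal-A2 they lay between 9.15 and 10.71 (median 10.02) in males and between 6.45 and 8.65 (median 7.78) in females, a difference of 2.33 (SE 0.08) or 5.02-fold. In neither gene did the sexes overlap.

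Mal-A4 had male arrays from 7.97 to 9.82 (median 8.92) and female arrays from 5.61 to 7.54 (median 6.62), so that all male arrays were above all female arrays. The difference was 2.29 (SE 0.11), or 4.90-fold. The smallest difference within the Mal-A cluster was that of Mal-A6, 2.06 (SE 0.10) or 4.18-fold. Its male arrays ran from 9.77 to 12.77 (median 11.97) and its female arrays from 8.16 to 11.05 (median 9.91). Here 1 male array of line P18, at 9.77, fell among the females, while the other 59 male arrays were above every female array. Adjusted p-values of the 7 Mal-A members were at most 2.19e-11.

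The Mal-B pair was split. Mal-B2 was 2.61-fold higher in males (difference 1.38, SE 0.05, adjusted p = 1.32e-13), with male arrays from 10.06 to 11.28 (median 10.65) and female arrays from 8.69 to 9.80 (median 9.17) and no overlap. Its neighbour Mal-B1 had male arrays from 5.95 to 9.59 (median 7.85) and female arrays from 6.94 to 9.19 (median 8.12), so that the female range lay inside the male range. The mean difference was -0.28 (SE 0.20, adjusted p = 0.185), and males were higher in 8 of 15 lines. With arrays centred on their median Mal-B1 was called higher in females (-0.92), and with ribosomal protein centring its difference was 0.40 and not called. The other 8 members were called higher in males under both centrings. In all, before centring, 6 members had every male array above every female array, which was so for 18.5% of transcripts. Whether the sexes stayed apart after centring was not examined. For Mal-B2, for example, the lowest male array (10.06) and the highest female array (9.80) were closer than the sexes' array medians, which differed by 0.64.

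**Figure D1:**
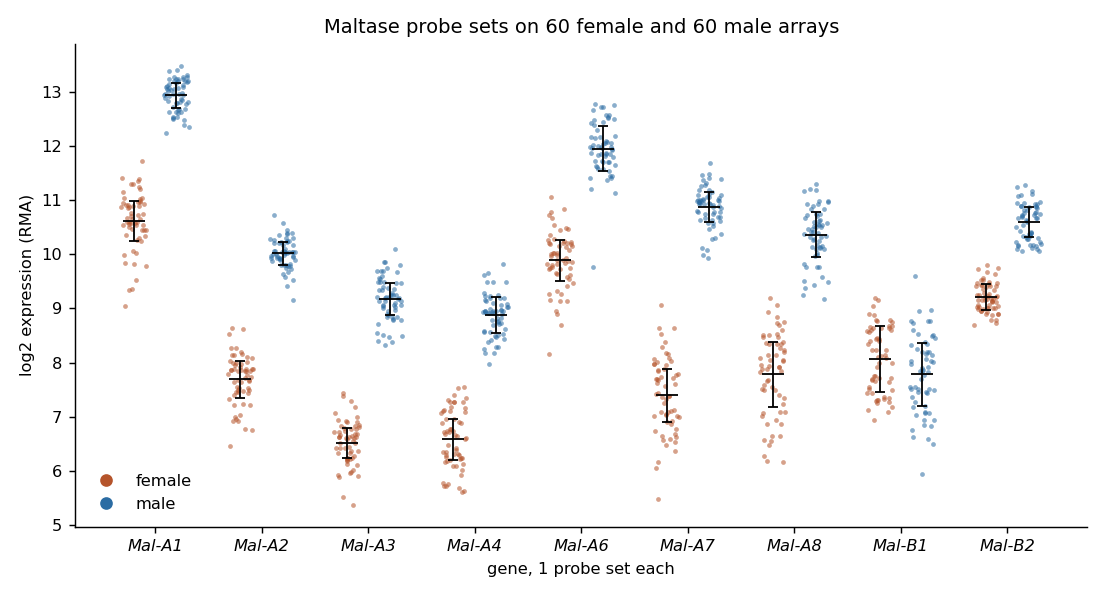
Each point is 1 array, with log2 expression on the vertical axis and 60 female and 60 male arrays for each of the 9 maltase probe sets; bars are the mean and the SD of 15 line means. All male arrays lie above all female arrays for 6 genes, 1 male array falls within the female range for Mal-A6 (9.77) and for Mal-A8 (9.17), and the sexes overlap throughout for Mal-B1.

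The amylase probe set shared by Amy-p and Amy-d moved the same way, although it belongs to no single member. Its arrays ran from 12.78 to 13.89 (median 13.40) in males and from 10.64 to 12.69 (median 11.76) in females, 3.19-fold higher in males (difference 1.68, SE 0.09, adjusted p = 2.82e-11) and higher in 15 of 15 lines. Line took 78.9% of the variance in males (adjusted p = 2.48e-11) and 71.2% in females (2.70e-08). Male line means went from 13.003 in P48 to 13.77 in P22 and female line means from 10.91 in P56 to 12.33 in H07. Their sex-by-line term was called as well (28.0% of the variance, adjusted p = 1.50e-05).

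Other genes of sugar handling gave a mixed picture beside the maltases. Among 15 other glycoside hydrolases 12 were measured, of which 10 were higher in males and none in females (median difference 1.44). They included tobi, an alpha-glucosidase known as a target of brain insulin, at 2.12 (SE 0.11), and LManIII, a lysosomal-type alpha-mannosidase, at 2.68 (SE 0.24). The 2 not called were Ect3 (0.05, SE 0.05) and Mal-A5 (-0.12, SE 0.05, adjusted p = 0.0373). Mal-A5 lies inside the Mal-A cluster, with medians of 10.4 in males and 10.5 in females. Its call depended on the scaling, being higher in females after array median centring (-0.76) and in males after ribosomal protein centring (0.57), in each case below the differences of the Mal-A members.

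Of 12 measured genes of sugar uptake and trehalose metabolism, 9 had a male excess and 2 a female excess (median 1.36). The largest differences were those of Hex-t2 (6.24, SE 0.05), a hexokinase of the testis, and the sugar transporter gene sut4 (5.95, SE 0.07). In females the transporter genes sut1 (-1.72, SE 0.04) and Glut1 (-1.46, SE 0.04) were higher. Glycogen genes divided evenly (2 higher in males, 2 in females, 2 not called of 6, median 0.19), and of 9 regulators of the sugar response 3 were higher in males and 6 in females (median -0.47). Those higher in females included Mondo (-0.62, SE 0.02), which senses sugar phosphates, and those higher in males included the repressor sugarbabe, sug (0.89, SE 0.09).

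Enzymes that digest protein had smaller differences in the median than the maltases. Of 24 measured trypsin and Jonah-type proteases, 11 had a male and 5 a female excess (median 0.48). The extremes called were Ser8 (2.52, SE 0.10) and Jon99Fi (-2.11, SE 0.18). Of 4 lipase genes 2 were higher in males, the largest being magro, mag (1.71, SE 0.10). Array median centring left 8 of 12 other glycoside hydrolases higher in males and 2 in females, and turned the proteases to 5 higher in males and 10 in females. Under that centring 1 glycogen gene was higher in males and 4 were in females, the regulators gave 0 and 7 and the lipases 1 and 2, while under ribosomal protein centring they were 5 and 0, 5 and 2, and 4 and 0. The latter centring gave 19 and 2 for the proteases, 12 and 0 for the other glycoside hydrolases and 10 and 2 for sugar uptake and trehalose.

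Gut and fat body markers also differed between the sexes. Of 10 midgut markers listed 5 were measured and 4 of these were higher in males, with a median difference of 0.88. Their mean per array ran from 7.91 to 8.96 (median 8.46) in males and from 7.13 to 8.14 (median 7.74) in females. The largest was mex1 (1.09, SE 0.05), an enterocyte gene, and none of the 5 reached the smallest difference called among the maltases, 1.38. Array median centring left 2 midgut markers with a male and 1 with a female excess, and ribosomal protein centring 5 and 0. Of 6 fat body markers 4 were higher in males and 2 in females (median 0.60), or 2 and 3 after array median and 4 and 0 after ribosomal protein centring, the largest difference being that of Lsp2 (1.97, SE 0.24). What part of the maltase difference goes with the amount of gut tissue was not tested.

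Line means of the maltases were apart in males for most members and in females for the Mal-B pair. In males the line term was called for 8 of 9 members, against 27.3% of all transcripts, and the exception was Mal-A3 (adjusted p = 0.00214). Line took 39.2% to 59.7% of the variance of the Mal-A members in males, with Mal-A4 (59.7%, adjusted p = 2.88e-06) and Mal-A6 (59.5%, 3.12e-06) highest. The median over all transcripts was 21.3%. Fewer members were called when arrays were left out. The count was 2 without the arrays numbered 1 and 1 (Mal-B2) without those numbered 2. It was 6 without those numbered 3, 3 without those numbered 4 and 5 without line P22. Where a call was lost the share of line could rise, as for Mal-A1 without the arrays numbered 4 (55.6% against 48.1%). It could also fall, as for Mal-A7 without those numbered 2 (32.7% against 42.8%). Over all transcripts the calls also dropped, from 5124 to between 2413 and 3188, when an array of each line was left out.

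In females only Mal-B1 and Mal-B2 were called for line, 2 of 9 against 8.36% of all transcripts. The Mal-A members had shares of 24.3% to 44.0% there, with the highest in Mal-A8 (adjusted p = 0.00172), against a median of 8.13% over all transcripts. Each of the 7 Mal-A members had a larger spread between the arrays of a line in females than in males. This error SD was 0.36 to 0.60 in females and 0.21 to 0.36 in males. For Mal-A7 it was 0.60 in females and 0.28 in males, and 0.453% of transcripts had a larger one in females. Over all transcripts the median error SD was 0.16 in females and 0.14 in males.

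**Figure D2:**
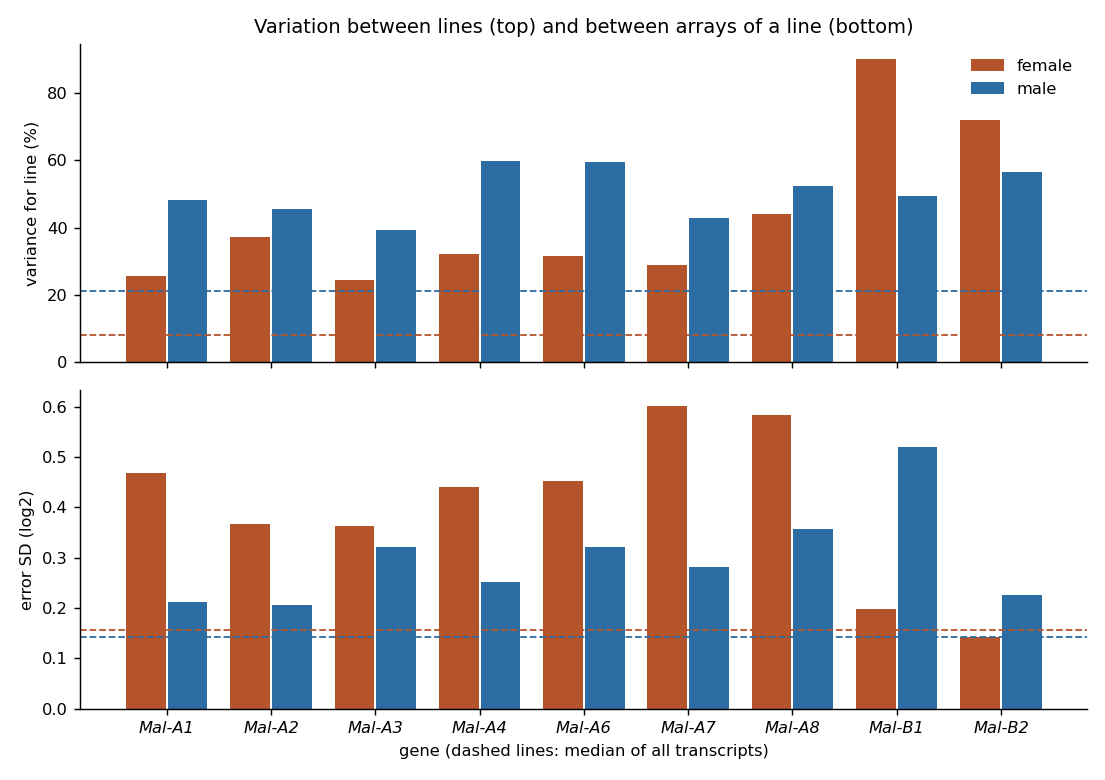
Upper bars give the percent of variance that line takes and lower bars the SD between arrays of a line (log2), for each maltase in 60 female and 60 male arrays; dashed lines are medians of all transcripts in the same sex. Line shares are larger in males for the Mal-A genes and in females for Mal-B1 (90.0%) and Mal-B2 (72.0%), and the error SD shows the reverse order.

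P22 stood at the top of most Mal-A genes. In males it had the highest line mean of Mal-A1, Mal-A2, Mal-A3 and Mal-A4, and in females that of Mal-A1, Mal-A2 and Mal-A6. For Mal-A3 the male arrays of P22 (mean 9.90, SD 0.14) were above every male array of the other 14 lines. The next line was P07, at 9.60 (SD 0.21). For Mal-A2 the 4 male arrays of P22 had a mean of 10.53 (SD 0.14) against 10.25 (SD 0.07) in P56, the next line, without overlap. An array of P07 at 10.398, however, lay above the lowest P22 array at 10.386. At the other end, H12 females had the lowest mean of 5 of 7 Mal-A members, and P50 males of 3. Across the cluster, the highest line mean was 1.74-fold to 2.95-fold above the lowest in males and 1.92-fold to 3.92-fold in females. The 2.95-fold is that of Mal-A6, whose lowest line, P18 (11.10, SD 0.90), had 1 array at 9.77 and the others at 11.37 to 11.73. Adjacent lines in the order of means overlapped in nearly every case, in 14 of 14 pairs for all Mal-A members but Mal-A2 and Mal-A3 in males, with 13 of 14, so that neighbours in the order were mostly not apart beyond their spread.

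Mal-A8 ordered the lines differently from most of the cluster. P22 and P56, which were the top lines for Mal-A6 in males (12.62, SD 0.13, and 12.66, SD 0.11), were both near the bottom for Mal-A8, at 9.80 (SD 0.25) and 9.66 (SD 0.38). In females the same lines were the lowest for Mal-A8, at 6.91 (SD 0.72) and 6.71 (SD 0.34). Mal-A8 was highest in H13 females (8.68, SD 0.27) and in H09 males (10.91, SD 0.27). Over the 15 line means its Pearson r with Mal-A1 to Mal-A6 had a median of -0.01 in females (-0.13 to 0.49, the highest with Mal-A4) and -0.16 in males (-0.31 to 0.16), while with its neighbour Mal-A7 it was 0.63 and 0.53. These and the following correlations are descriptions over lines or arrays that the genes share, without a test.

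The adjacent genes Mal-A3 and Mal-A4 ordered the lines alike, with r = 0.91 in females and 0.92 in males. Mal-A1 and Mal-A2, also adjacent, had r = 0.91 in females and 0.64 in males. Both Mal-A3 and Mal-A4 had their lowest male mean in H10 (8.60, SD 0.26, and 8.30, SD 0.25), although H10 females had the highest mean of Mal-A3 (6.94, SD 0.47). As a result H10 had their smallest sex differences, 1.66 and 1.33. Probe sequences were not used here, and whether neighbouring copies bind each other's probes was not tested.

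**Figure D3:**
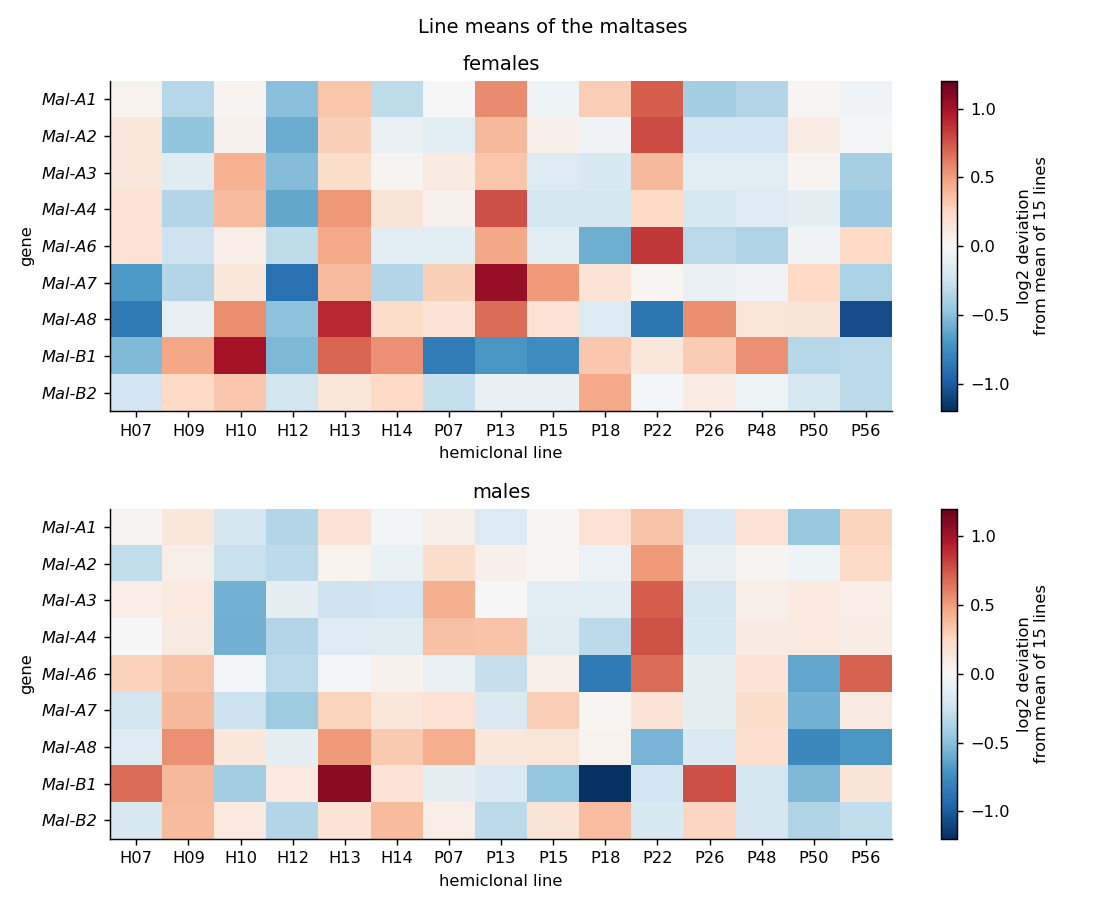
Colour gives the deviation of each line mean (4 arrays) from the mean of 15 lines on the log2 scale, for 9 maltases (rows) and 15 lines (columns), females above and males below. P22 is high for Mal-A1 to Mal-A6 in both sexes and low for Mal-A8, and P18 is at its lowest for Mal-B1 in males (6.60).

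Between arrays of the same line the Mal-A genes moved as a block in females. Over 60 deviations of arrays from their line mean, the 21 pairs of Mal-A members had a median r of 0.73 (0.56 to 0.89), and Mal-A8, unlike over line means, went with Mal-A1 to Mal-A6 (median 0.62). In males the median was 0.52 (0.23 to 0.86). Mal-A with Mal-B pairs had a median of -0.02 in females and 0.25 in males. A single array can show the block: in P48 females the mean of the 7 Mal-A members was 8.22, 8.18 and 8.39 on 3 arrays and 6.84 on the array numbered 4.

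Arrays numbered 4 were often the low ones. The mean of the Mal-A members was lowest on them in 10 of 15 lines in females, with a mean deviation of -0.35 from their line, and in 7 of 15 in males, with -0.16. The arrays were processed in 8 batches of 15, and neither the labels nor the methods say which arrays made up a batch or whether a replicate number marks one, so that a part of batch in this was not tested. Without these arrays 8 members were still called higher in males. Other gene lists followed the Mal-A mean between arrays to differing degrees, here as r of list means, which is unlike the r of single gene pairs. The r of array deviations with the Mal-A mean was 0.57 in females and 0.48 in males for the other glycoside hydrolases. It was 0.32 and 0.23 for the midgut markers, 0.32 and 0.26 for the lipases, and 0.10 and -0.01 for the proteases. For the glycogen genes it was -0.09 and 0.29. With the array median it was -0.38 in females and 0.24 in males.

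**Figure D4:**
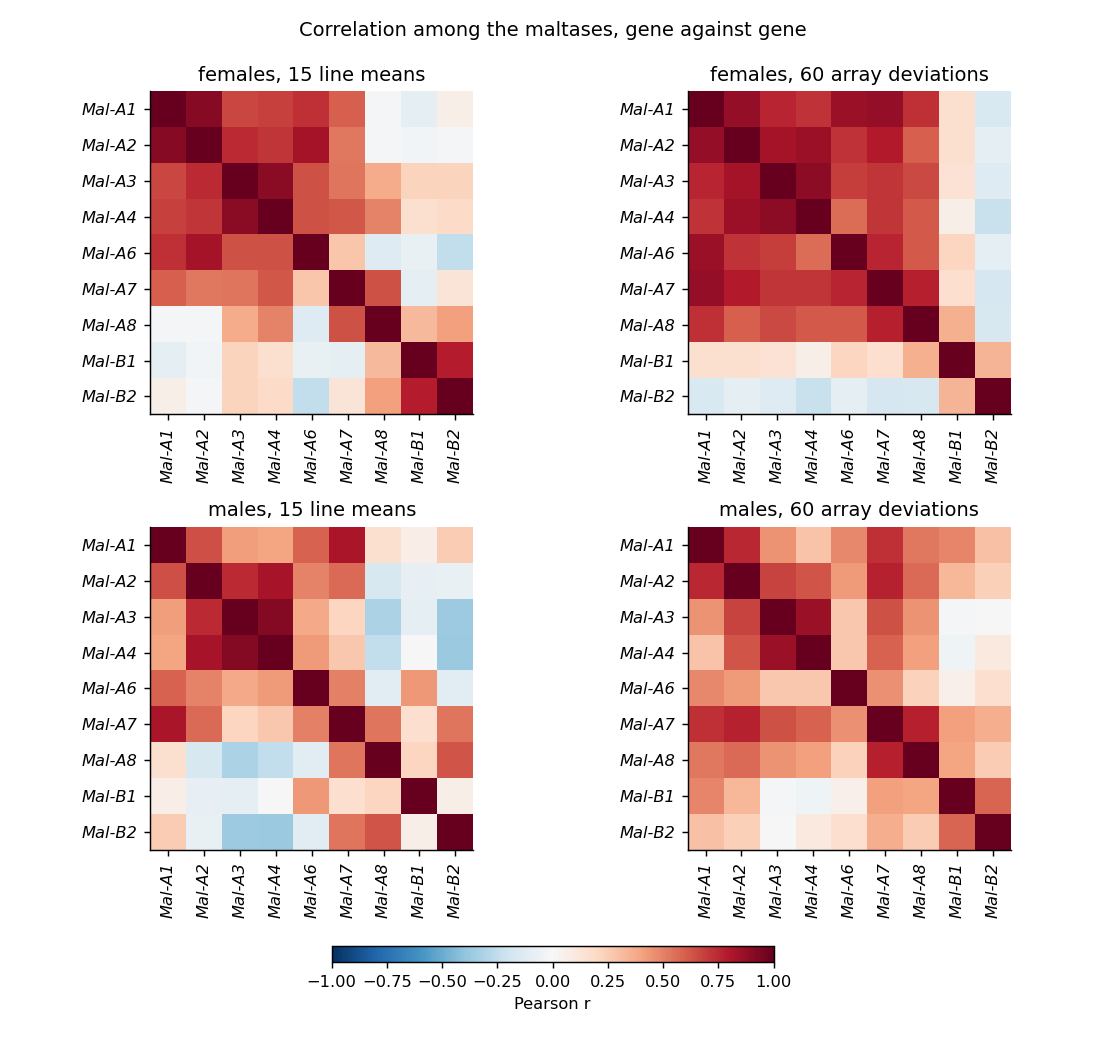
Pearson r between each pair of maltases, over 15 line means (left) and over 60 deviations of arrays from their line mean (right), in females (top) and males (bottom). In females the array deviations of the Mal-A genes form a block (median r 0.73) that leaves out Mal-B1 and Mal-B2, and over female line means Mal-A8 has a median r of -0.01 with Mal-A1 to Mal-A6.

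For Mal-B1 the effect of sex differed between lines. Its sex-by-line term took 57.2% of the variance (adjusted p = 1.02e-08), and it was the 1 member of 9 with this term called, against 9.87% of all transcripts. In H07 males were higher by 0.91, with male arrays from 8.03 to 8.77 and female arrays from 7.44 to 7.68. In P18 males were lower by 1.79, with male arrays from 5.95 to 7.19 and female arrays from 8.11 to 8.65. Before centring, the 2 lines thus had non-overlapping sexes in opposite directions. Array median centring lowers each male minus female difference by about 0.64, and the overlap within single lines was not examined after it. The sex-by-line call of Mal-B1 held under both centrings. H10 was like P18, with females at 9.07 (SD 0.14), the highest of all lines, and males at 7.36 (SD 0.60), the fourth from the bottom.

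Among females line took 90.0% of the variance of Mal-B1 (adjusted p = 8.03e-17), and 0.0586% of transcripts had a larger share. Female line means ran from 7.22 (SD 0.19) in P07 to 9.07 in H10, a 3.59-fold range, with an error SD of 0.20. The widest step in their order was between P56 (7.74) and P22 (8.20). All arrays of the 7 lines below it were at or under 7.99 and all arrays of the 8 lines above it at or over 8.08. Such a step, with at least 3 lines on each side and no array crossing, occurred for 0.213% of transcripts in females. The step was noticed in these values and is given as a description.

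Male arrays of the same line differed more in Mal-B1 than female arrays did. Male line means ran from 6.60 (SD 0.52) in P18 to 8.86 (SD 0.55) in H13, a 4.80-fold range, but the error SD was 0.52, and 0.565% of transcripts had a larger one. Line took 49.4% of the variance (adjusted p = 1.27e-04). The r of male with female line means was 0.12 for Mal-B1, near the median of 0.14 over all transcripts.

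**Figure D5:**
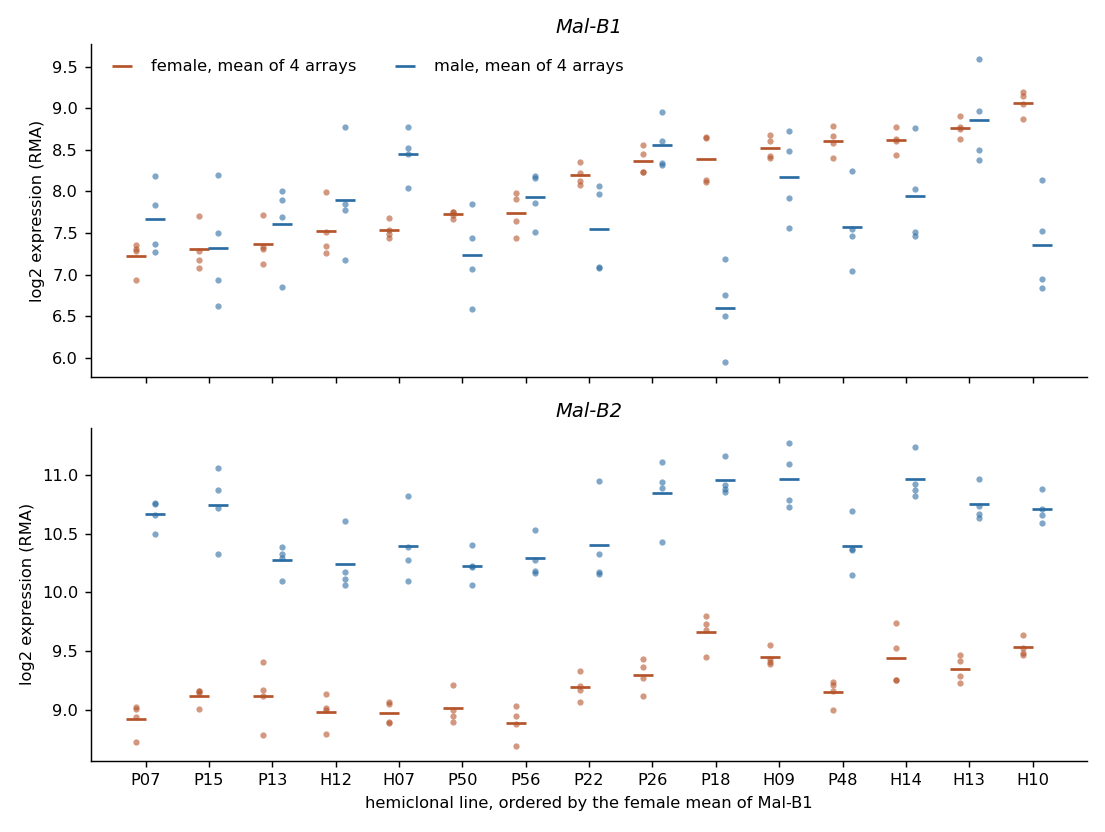
Points are single arrays and dashes the means of 4 arrays (log2), for Mal-B1 above and Mal-B2 below, with lines ordered by the female mean of Mal-B1. Female arrays of Mal-B1 step up between P56 and P22 while its male arrays follow another order, and Mal-B2 is higher in males in every line.

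Among the members, the order of lines was most alike in the sexes for Mal-B2. The r between male and female line means was 0.77, against 0.10 (Mal-A3) to 0.56 (Mal-A8) for the Mal-A members, and its sex difference stayed between 1.16 in P13 and 1.75 in P07. Line took 56.5% of the variance in males (adjusted p = 1.08e-05) and 72.0% in females (1.59e-08). Female means ran from 8.89 (SD 0.14) in P56 to 9.66 (SD 0.15) in P18, and male means from 10.23 (SD 0.14) in P50 to 10.97 (SD 0.26) in H09. In females the line means of Mal-B1 and Mal-B2 had r = 0.79, and in males 0.06.

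Over both sexes together no member was called for line, against 0.282% of all transcripts. Mal-B2 came closest, with 54.6% of the variance (adjusted p = 0.0144). Next by this restricted likelihood ratio test was Mal-A8 (31.7%, adjusted p = 0.182). The moderated test of limma, which sets line against the error between arrays, called 8 members and 27.4% of all transcripts.

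Between lines whose names begin with H and those with P no member was called at an FDR of 0.05, in males or in females. Of all transcripts 3.81% and 0.25% were called (limma on 15 line means). The lowest adjusted p of a member in this test was 0.176 in males and 0.341 in females.

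For the 8 members called for line in males, the genes outside the member list most like each over the 15 male line means were sought. The 4533 candidates are transcripts called for line in males and annotated to 1 gene, the members being left out. Some members were more like each other: Mal-A1 with Mal-A7 and Mal-A2 with Mal-A4 both had r = 0.82 in males. Each of these r was above that of either gene with its nearest candidate. Mal-A8 was most like tobi (r = 0.83 in males, 0.57 in females). Mal-A4 was most like CG7968 and CG7631 (both 0.81 in males, and 0.87 and 0.69 in females). Mal-B2 went with yellow-e (0.79 and 0.84), Mal-A1 with AANATL3 (0.78 and 0.60) and Mal-A6 with the neuropeptide-like precursor gene Nplp3 (0.70 and 0.18). Mal-A2 was nearest to CG8460 (0.80 and -0.05), Mal-A7 to CG14246 (0.73 and 0.13) and Mal-B1 to CG6055 (0.78 and 0.12). In the last 3 the r in females was at most 0.13. These are the nearest of many candidates over 15 lines, and their r was not tested.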

How the data were processed

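The 120 arrays (Affymetrix Drosophila Genome 2.0) were read from 1 table of log2 values, which the authors deposited after RMA in the affy package (background correction, quantile normalisation, 1 log2 value per probe set). No version of RMA or affy is given in the sources used here, though the methods name releases of R and BioConductor. The 183 control probe sets of 18,952 were left out, and line, sex and replicate number came from the labels. Each transcript was fitted with sex fixed and line and sex by line random, in closed form for the balanced design. Sex was tested with an F test (1 and 14 degrees of freedom), and line variances with restricted likelihood ratio tests, also within each sex. The Benjamini-Hochberg adjustment ran over all 18,769 transcripts, with calls at an FDR of 0.001, or 0.05 for H against P lines (limma). For the members, shares and p-values of the sex-by-line term and of line over both sexes were checked against lme4. Those of line within a sex and of the F test were not. The fit was tested on simulated data. The batch term of the study's model was left out, as the labels name no batch. Percent of variance is the variance component over the sum of components. Members, named-gene rule (all members, the 3 most alike per member, and up to 3 called genes per list) and gene lists were chosen with earlier results of these data known, and values of other listed genes were named for contrast, after they were seen. Alternatives were array and ribosomal protein centring, a replicate block, leaving out replicate numbers or lines, a filter on dim transcripts (means under 5 in both sexes), limma and an FDR of 0.05. Software was Python 3.11.15 (matplotlib 3.10.9, scipy 1.17.1, pandas 2.3.3, numpy 2.4.6) and R 4.3.3 (lme4 1.1.37, limma 3.58.1).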

Additional observations from a re-analysis of the deposited data

Results flagged for a closer look

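In 13 of 270 groups of 4 arrays (9 members, 15 lines and both sexes), 1 array stood apart from the other 3 by Dixon's test at the 95% level, 8 in females and 5 in males. Chance flags about 1 in 20 groups. In females, the Mal-A2 value of P15 replicate 2 was low at 7.45 (nearest array 7.84), Mal-A4 of P48 replicate 4 was low at 5.62 (6.60), and Mal-B2 of P15 replicate 1 was low at 9.003 (9.14). Mal-A6 was high in H13 replicate 3 at 10.84 (10.21) and low in P56 replicate 1 at 9.82 (10.20). Mal-A7 was high in H07 replicate 1 at 7.25 (6.59), low in P13 replicate 2 at 7.97 (8.53) and low in P18 replicate 4 at 7.10 (7.68). In males, Mal-A3 was low in H13 replicate 1 at 8.40 (9.02) and in P07 replicate 4 at 9.29 (9.68). Mal-A4 was high in H09 replicate 2 at 9.13 (8.95), Mal-A7 low in P56 replicate 4 at 10.87 (11.01) and Mal-A8 low in H14 replicate 4 at 10.47 (10.72).

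The effect of sex on Mal-B1 differed between lines by the sex-by-line term (restricted likelihood ratio test, Benjamini-Hochberg adjusted p = 1.02e-08, 57.2% of the variance), with males higher in 8 of 15 lines.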

How the results depend on the processing

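The count of 8 members higher in males was the same under every alternative, with 1 more, Mal-B1, called higher in females after array median centring. The count of 8 called for line in males was 1 to 6 without the arrays of 1 replicate number and 5 to 9 without 1 line (9 without H07, where Mal-A3 was added). Over all transcripts 27.3% became 12.9% to 17% and 22.5% to 26.5%. With ribosomal protein centring the male count was 7 (Mal-A2 lost), against 42.2% of all transcripts. Without dim transcripts it was 8 against 39.3%, and at an FDR of 0.05 it was 9 against 47.4%. In females the count of 2 went to 4 with a replicate block (Mal-A2 and Mal-A8 added) and to 7 at an FDR of 0.05. The share of all transcripts went from 8.36% to 9.43% and 18.6%. For sex by line the count of 1 went to 2 with the block (Mal-A7 added) and to 4 at an FDR of 0.05. Here the share of all transcripts went from 9.87% to 11.9% and 25.4%. For line over both sexes the count of 0 became 8 with limma, which tests line against the array error, and 1 at an FDR of 0.05. Of all transcripts these called 27.4% and 3.62%. For H against P lines it became 1 in males (Mal-A2, H minus P -0.23, adjusted p = 0.0362) with the replicate block on single arrays. Over all transcripts H against P gave 716 calls in males and 47 in females, which became 2206 and 649 with that block, 426 to 731 and 29 to 110 without 1 replicate number; for line over both sexes 53 calls became 5137 with limma and 17 to 39 without 1 replicate number. No called difference of a member changed sign. Of those not called, the sex difference of Mal-B1 went from -0.28 to 0.40 with ribosomal protein centring, and some small H minus P differences changed sign without 1 replicate number. Same-numbered male and female arrays of a line deviated together (r over 0.1) in 19 of 60 pairs (median 0.05). Of the 60, 31 were most like their own number, more than the 1 in 4 that numbers without meaning would give. What same-numbered arrays share was not tested. The main model left the numbers out, and the replicate block was run as an alternative. Each member has 1 probe set, so that no other could be tried. The number of arrays limits the precision, and 4 arrays per line give only the ends of an order. Independent groups of flies stand behind the replicates, and the batch of each array is not known here.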
